A study of Saccharomyces cerevisiae with 7 samples.

Results

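The genes described here encode the cytosolic translation factors of budding yeast: 24 initiation factors, 10 elongation factors, 2 termination factors and the poly(A)-binding protein Pab1. They were taken from a list of 37 gene symbols, each matched to its systematic name, and all 37 were found among the 6225 names on the arrays, with 1 probe each. BY4741 cells, which lack working copies of *HIS3*, *LEU2*, *MET15* and *URA3*, carried the plasmid pTOW40836, a vector with *URA3* and a weak *LEU2* allele, and total RNA was taken from SC–Ura cultures in mid-log phase. The plasmid expressed GFP or GFP-Deg (GFP with a degron of mouse ornithine decarboxylase) from *TDH3pro*, GFPm3 (a misfolding mutant), MTS-GFP (with the mitochondrial targeting signal of Mrps12) or SS-GFP (with a trypanosome secretion signal) from *PYK1pro*, NES-GFP (with the nuclear export signal of human PKI) from *HXT7pro*, or no GFP (empty vector). The copy number of this plasmid is not fixed, so neither the promoter nor the plasmid dose is shared by all constructs. Each construct was measured on 1 array, so there is no replicate error and no test was made.

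A level is the log2 of the processed signal of a gene relative to the 75th percentile of its array, and a deviation is its level minus the mean of the 7 arrays. Levels are compared for 1 gene across arrays and never between genes. The 75th percentile lay between 3692.6 (GFP) and 5623.6 (NES-GFP), and 97.0% to 98.9% of the yeast spots were well above background, with 0 saturated. GFPm3, MTS-GFP, NES-GFP and the empty vector shared a slide, and GFP, GFP-Deg and SS-GFP shared the other. The pooled SD of the 7 spots of a probe was 0.11 on the log2 scale, an error that leaves out the difference between cultures. The 37 translation factor genes exceeded background clearly on every one of the 7 arrays. The arrays measure the share of a transcript in the RNA of a culture, so fewer expressing cells and less transcript per cell cannot be told apart.

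In translation initiation, eIF2 brings the initiator tRNA to the small ribosomal subunit with the help of its exchange factor eIF2B, eIF3 holds the complex together, and the eIF4 factors recruit the capped mRNA. eIF1, eIF1A and eIF5 act in the choice of the start codon, and eIF5B joins the large subunit. In elongation, eEF1A delivers aminoacyl-tRNA and is recharged by eEF1B, eEF2 moves the ribosome along the mRNA, eIF5A helps with difficult peptide bonds, and fungi also need the ATPase eEF3. Many of these genes are known to be transcribed in step with ribosomal protein genes during fast growth.

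With the 75th percentile as the scale, most of the factor genes had the same profile over the constructs. In MTS-GFP and in NES-GFP, 34 of the 37 lay below their mean of 7 arrays, with a median deviation of -0.43 in MTS-GFP and -0.30 in NES-GFP, and in GFP-Deg 34 of the 37 lay above it, with a median of 0.33. Of all 6225 genes, 3495 lay below their mean in MTS-GFP and 3505 in NES-GFP, and 3433 lay above it in GFP-Deg. For 30 of the 37, MTS-GFP and NES-GFP were the 2 lowest arrays, a pattern that 20.0% of all genes had. With quantile, loess, and normexp followed by quantile normalization the number was 20, 19 and 21, against 1133, 932 and 1123 of all 6225 genes. Most of this loss was among the elongation factors, of which 8 of 10 had the pattern with the 75th percentile and 1, 1 and 2 with the other scalings, whereas of the initiation factors 20 of 24 had it and then 17, 16 and 17. The median deviation of all genes was between -0.05 and 0.04 on every array. The remaining medians of the 37 were 0.11 in GFP, -0.04 in GFPm3, 0.18 in SS-GFP and 0.09 in the empty vector. The median of 0.11 in GFP became -0.03 with loess normalization and that of -0.04 in GFPm3 became 0.06 with quantile normalization, whereas MTS-GFP stayed between -0.43 and -0.27, NES-GFP between -0.30 and -0.13 and GFP-Deg between 0.17 and 0.33 over the 4 ways of scaling.

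**Figure D1:**
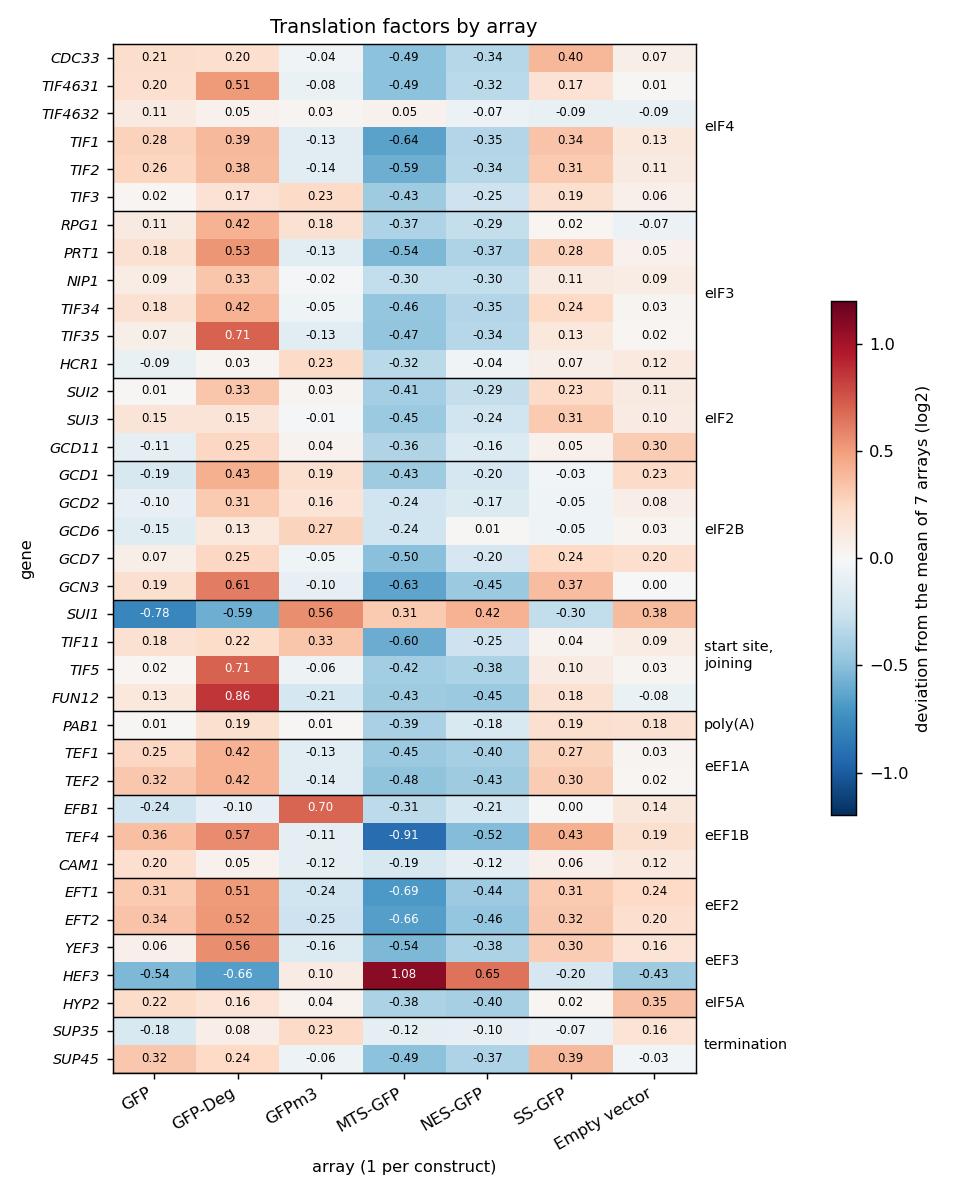
Deviation of each of the 37 translation factor genes (rows, grouped by role) from its mean of 7 arrays, on the log2 scale, in each array (columns, 1 per construct). The MTS-GFP and NES-GFP columns are each below 0 for 34 of the 37 genes. The exceptions are *HEF3* and *SUI1* in both columns, *TIF4632* in MTS-GFP (0.05) and *GCD6* in NES-GFP (0.01).

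The slide also moved with this profile. For 17 of the 37 genes every array of the slide that held GFP, GFP-Deg and SS-GFP lay above every array of the other, a pattern that 15.7% of all genes had. The 17 were *CDC33*, *TIF4631*, *TIF1*, *TIF2*, *PRT1*, *NIP1*, *TIF34*, *TIF35*, *SUI3*, *GCN3*, *FUN12*, *TEF1*, *TEF2*, *TEF4*, *EFT1*, *EFT2* and *SUP45*. When the average was taken over each slide alone, 35 of the 37 genes lay below it in MTS-GFP and 35 in NES-GFP, with medians of -0.29 and -0.14, and 31 lay above it in GFP-Deg, with a median of 0.11. MTS-GFP and NES-GFP, which share a slide with the empty vector, were therefore low within that slide as well on this scale. With loess normalization the initiation medians relative to the empty vector were -0.35 in MTS-GFP and -0.21 in NES-GFP. The elongation medians were then -0.05 and -0.04. The height of GFP, GFP-Deg and SS-GFP over the empty vector cannot be told apart from the slide.

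The changes were small. Only *HEF3* was over 2-fold from its mean in any array, against 8.96% of all genes, and 13 of the 37 were over 1.5-fold (0.58 on the log2 scale), against 31.7% of all genes, so the factor genes passed the lower threshold about as often as genes in general. The 13 were *TIF1*, *TIF2*, *TIF35*, *GCN3*, *SUI1*, *TIF11*, *TIF5* and *FUN12* among the initiation factors and *EFB1*, *TEF4*, *EFT1*, *EFT2* and *HEF3* among the elongation factors. The near-identical pairs *TIF1* and *TIF2*, and *EFT1* and *EFT2*, may not be independent counts. The range over the 7 arrays went from 0.21 for *TIF4632* to 1.75 for *HEF3*, with a median of 0.88, against 0.76 over all genes. With loess normalization 7 of the 13 remained over 1.5-fold (*TIF35*, *GCN3*, *SUI1*, *TIF5*, *FUN12*, *EFB1* and *HEF3*), against 25.8% of all genes, and relative to the slide mean 2 remained (*EFB1* and *HEF3*), against 16.3%.

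The question for which the 2 main classes were set side by side is whether initiation and elongation factors moved together. With the 75th percentile as the scale their medians had the same sign on each array. The median deviations were 0.10 for initiation and 0.24 for elongation in GFP, 0.33 and 0.42 in GFP-Deg, -0.02 and -0.12 in GFPm3, -0.43 and -0.47 in MTS-GFP, -0.29 and -0.40 in NES-GFP, 0.15 and 0.29 in SS-GFP, and 0.08 and 0.15 in the empty vector. The difference, initiation minus elongation, was thus between -0.14 (SS-GFP) and 0.11 (NES-GFP). The error of such a difference between cultures is not known from 1 array per construct. On MTS-GFP, 22 of 24 initiation factors and 9 of 10 elongation factors lay below the mean, against 3495 of all 6225 genes. On GFP-Deg, 23 of 24 initiation factors and 8 of 10 elongation factors lay above it, against 3433 of all 6225 genes.

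This likeness depended on the scaling, and the dependence was on the side of the elongation factors. With loess normalization, which removes trends with signal, the initiation median was -0.31 in MTS-GFP, -0.16 in NES-GFP and 0.26 in GFP-Deg, with 22 of 24, 21 of 24 and 23 of 24 genes on the same side as before. Of all 6225 genes, 3043, 3097 and 3059 were on that side with loess normalization. The elongation median became 0.07 in MTS-GFP, 0.01 in NES-GFP, 0.01 in GFP-Deg and -0.14 in GFP, and in MTS-GFP 4 of 10 were below the mean. Quantile normalization gave -0.41 for initiation and -0.11 for elongation in MTS-GFP, and 0.28 and 0.02 in GFP-Deg. Initiation minus elongation in MTS-GFP was therefore 0.03 with the 75th percentile, -0.29 with quantile, -0.38 with loess and -0.26 with normexp followed by quantile normalization, and in GFP-Deg it was -0.09, 0.26, 0.25 and 0.24. Its sign turned likewise in GFP, NES-GFP and SS-GFP, so which class was the higher in these 5 arrays depends on the scaling. The sign was kept over the 4 scalings in GFPm3, at 0.05 to 0.10, and in the empty vector, at -0.07 to -0.04.

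**Figure D2:**
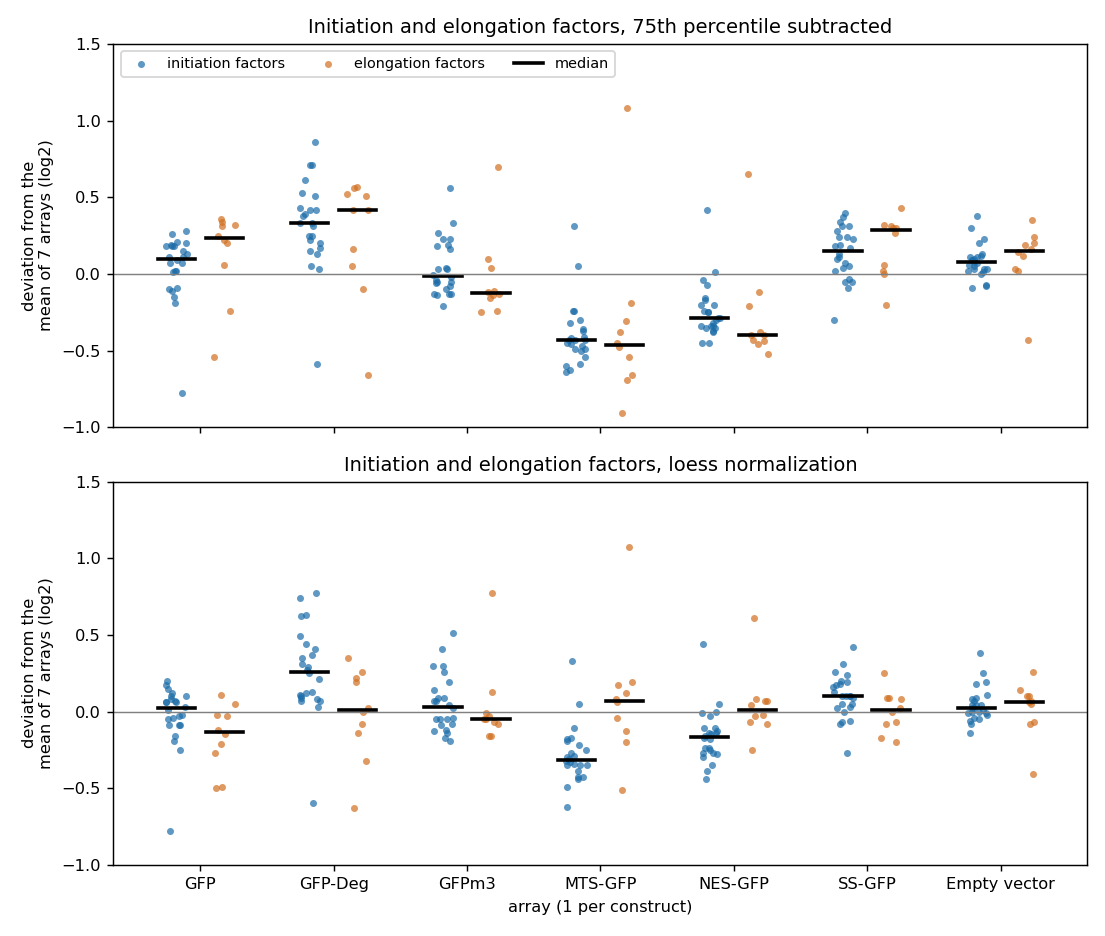
Deviation (log2) of the 24 initiation and 10 elongation factor genes in each array, with the 75th percentile subtracted (upper panel) and with loess normalization (lower panel); each point is a gene and black bars are medians. In MTS-GFP the medians were -0.43 and -0.47 in the upper panel and -0.31 and 0.07 in the lower.

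The signal of the genes moved with this result. By mean signal, 5 of 24 initiation factors and 9 of 10 elongation factors were in the brightest signal decile of all genes, and *HEF3*, the remaining elongation factor, was in the third decile. The brightest decile as a whole, 623 genes, had a median deviation of 0.20 in GFP, 0.20 in GFP-Deg, -0.07 in GFPm3, -0.32 in MTS-GFP, -0.23 in NES-GFP, 0.17 in SS-GFP and 0.09 in the empty vector. In the ninth decile, which held 7 initiation factors, the median was -0.07 in MTS-GFP and 0.04 in GFP-Deg. The part of signal in the elongation medians was not tested apart from these scalings.

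**Figure D3:**
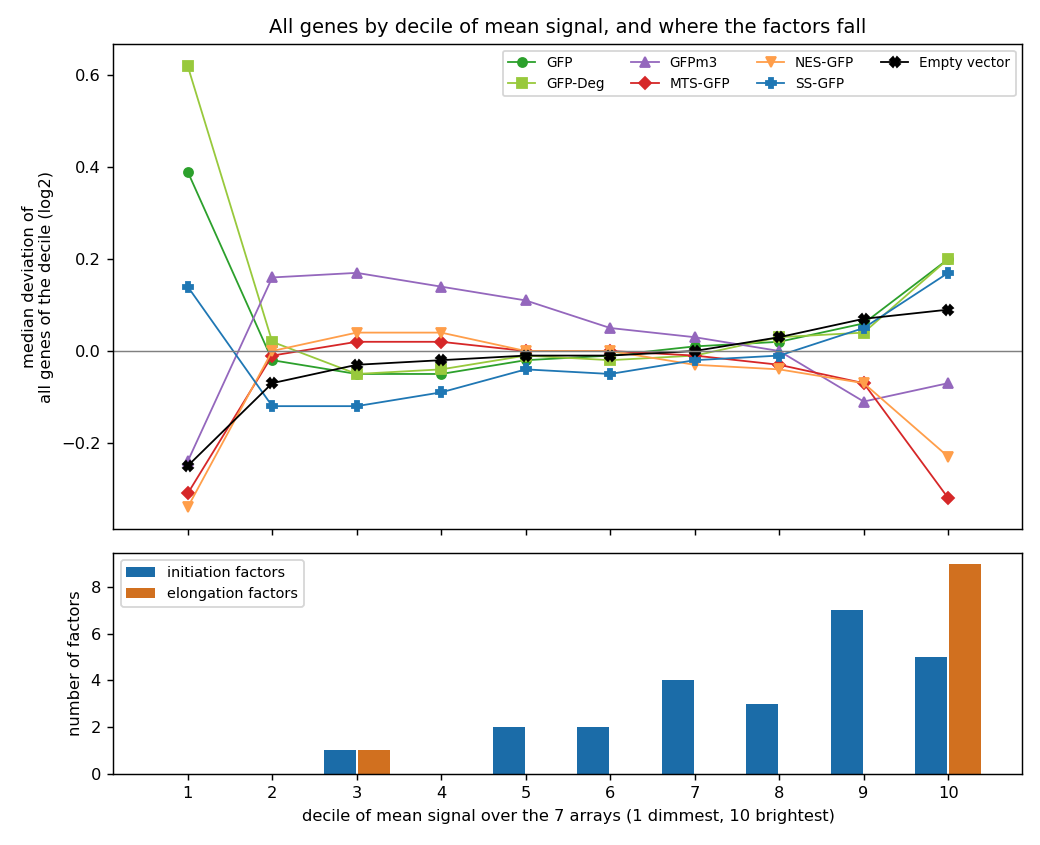
Median deviation (log2) of all genes in each decile of mean signal, by array (upper panel), and number of initiation and elongation factors in each decile (lower panel). In the brightest decile, which holds 9 of the 10 elongation factors, MTS-GFP is at -0.32 and NES-GFP at -0.23.

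**Figure D4:**
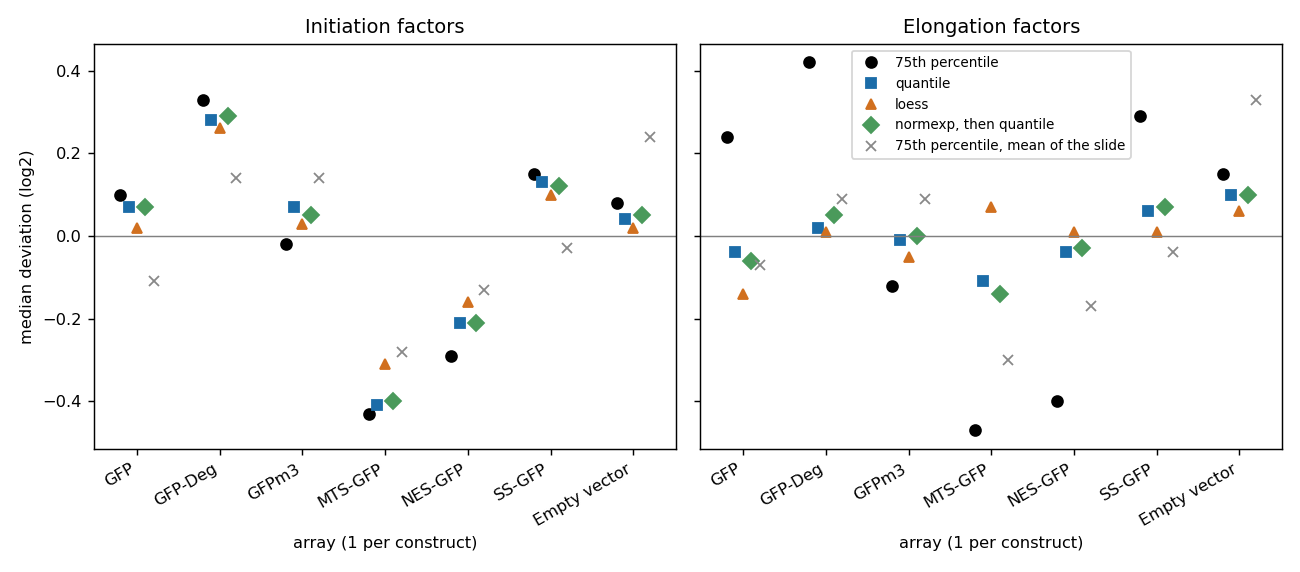
Median deviation (log2) of the initiation factors (left) and the elongation factors (right) in each array under 4 ways of scaling and relative to the slide mean. Initiation medians in MTS-GFP lie between -0.43 and -0.28 under all of them, and elongation medians between -0.47 and 0.07.

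The eIF4 group recruits the mRNA: *CDC33* encodes the cap-binding eIF4E, *TIF4631* and *TIF4632* the scaffold eIF4G, *TIF1* and *TIF2* the helicase eIF4A, and *TIF3* its partner eIF4B. The level of *TIF1* (YKR059W) was 4.60 in GFP, 4.71 in GFP-Deg, 4.19 in GFPm3, 3.68 in MTS-GFP, 3.97 in NES-GFP, 4.66 in SS-GFP and 4.45 in the empty vector. *TIF2* (YJL138C), which encodes the same protein, lay at 4.58 in GFP, 4.70 in GFP-Deg, 4.18 in GFPm3, 3.73 in MTS-GFP, 3.98 in NES-GFP, 4.62 in SS-GFP and 4.42 in the empty vector. The deviations of these near-identical genes never differed by more than 0.05, and whether each probe also reads the other transcript was not tested. *TIF1* in MTS-GFP was -0.77 relative to the empty vector with the 75th percentile and -0.20 with loess normalization.

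The genes of eIF4G did not run together. *TIF4631* (YGR162W) had levels of 0.06 in GFP, 0.37 in GFP-Deg, -0.22 in GFPm3, -0.63 in MTS-GFP, -0.46 in NES-GFP, 0.03 in SS-GFP and -0.13 in the empty vector, a range of 1.0. *TIF4632* (YGL049C) had levels of -2.66 in GFP, -2.72 in GFP-Deg, -2.74 in GFPm3, -2.72 in MTS-GFP, -2.84 in NES-GFP, -2.86 in SS-GFP and -2.86 in the empty vector, a range of 0.21 and the smallest of the 37. MTS-GFP minus the empty vector was -0.49 for *TIF4631* and 0.14 for *TIF4632*. For *TIF4631* this value stayed between -0.51 and -0.42 over the 4 scalings. The eIF4E gene *CDC33* and the eIF4B gene *TIF3* were also lowest in MTS-GFP, at deviations of -0.49 and -0.43.

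All 6 genes of eIF3 were lowest in MTS-GFP, as were 25.3% of all genes, and 5 of the 6 were highest in GFP-Deg, as were 21.8% of all genes. Both counts were the same under the 4 scalings. Relative to the slide mean all 6 were still lowest in MTS-GFP, but *TIF35* alone was highest in GFP-Deg. *PRT1*, *NIP1* and *TIF34* were then highest in the empty vector, and *RPG1* and *HCR1* in GFPm3. *TIF35* (YDR429C), which encodes the RNA-binding subunit eIF3g, lay at 1.31 in GFP, 1.94 in GFP-Deg, 1.11 in GFPm3, 0.77 in MTS-GFP, 0.90 in NES-GFP, 1.37 in SS-GFP and 1.26 in the empty vector. *PRT1* (YOR361C), the gene of the subunit eIF3b, had levels of 1.61 in GFP, 1.96 in GFP-Deg, 1.31 in GFPm3, 0.89 in MTS-GFP, 1.06 in NES-GFP, 1.71 in SS-GFP and 1.48 in the empty vector. In both, GFP-Deg stood above all the other arrays, by 0.68 over the empty vector for *TIF35* and 0.48 for *PRT1*, differences that are between slides. *RPG1*, *NIP1* and *TIF34*, which encode further core subunits, deviated by 0.42, 0.33 and 0.42 in GFP-Deg. *HCR1*, the gene of a loosely bound subunit, was the exception with 0.03 in GFP-Deg and its highest deviation, 0.23, in GFPm3.

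The 3 genes of eIF2 and the 5 of eIF2B were all lowest in MTS-GFP under the 4 scalings. *SUI2* (YJR007W), whose product is the subunit phosphorylated by Gcn2, had levels of 0.27 in GFP, 0.58 in GFP-Deg, 0.28 in GFPm3, -0.16 in MTS-GFP, -0.04 in NES-GFP, 0.48 in SS-GFP and 0.36 in the empty vector. *SUI3* (YPL237W), for the beta subunit, lay at 1.32 in GFP, 1.32 in GFP-Deg, 1.16 in GFPm3, 0.72 in MTS-GFP, 0.93 in NES-GFP, 1.49 in SS-GFP and 1.27 in the empty vector. *GCD11*, for the GTP-binding subunit, was lower in all 6 GFP arrays than in the empty vector, with differences from -0.04 (GFP-Deg) to -0.66 (MTS-GFP).

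Within eIF2B the regulatory subunit gene *GCN3* (YKR026C) varied most, with levels of -0.94 in GFP, -0.52 in GFP-Deg, -1.23 in GFPm3, -1.76 in MTS-GFP, -1.58 in NES-GFP, -0.76 in SS-GFP and -1.13 in the empty vector. *GCD1* (YOR260W), for a subunit of the catalytic part, had 0.45 in GFP, 1.07 in GFP-Deg, 0.84 in GFPm3, 0.21 in MTS-GFP, 0.44 in NES-GFP, 0.61 in SS-GFP and 0.88 in the empty vector. The genes thus differed in GFP, where *GCN3* was 0.20 above the empty vector and *GCD1* was -0.42 relative to it, both between slides. For *GCN3*, MTS-GFP minus the empty vector was -0.63 and between -0.67 and -0.62 over the 4 scalings. *GCD2*, *GCD6* and *GCD7*, which encode the remaining subunits, had ranges of 0.54, 0.52 and 0.75.

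Among the factors of start codon choice and subunit joining, *FUN12* and *TIF5* were high in GFP-Deg. *FUN12* (YAL035W), the gene of the GTPase eIF5B, lay at 1.61 in GFP, 2.34 in GFP-Deg, 1.27 in GFPm3, 1.04 in MTS-GFP, 1.02 in NES-GFP, 1.65 in SS-GFP and 1.40 in the empty vector. *TIF5* (YPR041W), for the GTPase-activating protein eIF5, had levels of -1.74 in GFP, -1.06 in GFP-Deg, -1.83 in GFPm3, -2.19 in MTS-GFP, -2.14 in NES-GFP, -1.67 in SS-GFP and -1.74 in the empty vector. GFP-Deg minus the empty vector was 0.94 for *FUN12* and 0.68 for *TIF5*, and over the 4 scalings it was 0.87 to 0.94 and 0.65 to 0.70. These differences are between slides. Relative to the mean of its own slide, GFP-Deg was at 0.47 for *FUN12* and 0.43 for *TIF5*. *TIF11* (YMR260C), for eIF1A, had levels of 1.74 in GFP, 1.77 in GFP-Deg, 1.88 in GFPm3, 0.95 in MTS-GFP, 1.31 in NES-GFP, 1.59 in SS-GFP and 1.64 in the empty vector, and was low mainly in MTS-GFP.

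*SUI1* (YNL244C), the gene of eIF1, did not follow the other initiation factors. It lay at -1.39 in GFP, -1.21 in GFP-Deg, -0.06 in GFPm3, -0.31 in MTS-GFP, -0.20 in NES-GFP, -0.92 in SS-GFP and -0.23 in the empty vector. The 3 arrays with low *SUI1* were the 3 of 1 slide, and the 4 with high *SUI1* were the 4 of the other. It was the only one of the 37 with this pattern, which 12.1% of all genes had. Against the mean of its own slide *SUI1* in GFP deviated by -0.22, in place of -0.78, so slide and construct cannot be told apart for this gene. The value of GFP minus the empty vector, -1.16, is between slides.

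*PAB1* encodes the protein that coats the poly(A) tail and contacts eIF4G. Its deviation was -0.39 in MTS-GFP and -0.18 in NES-GFP, and between 0.01 and 0.19 in the other 5 arrays.

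Among the elongation factors, the genes of eEF1A, *TEF1* and *TEF2*, encode the same protein. *TEF1* (YPR080W) had levels of 6.38 in GFP, 6.55 in GFP-Deg, 6.0 in GFPm3, 5.68 in MTS-GFP, 5.72 in NES-GFP, 6.40 in SS-GFP and 6.16 in the empty vector. *TEF2* (YBR118W) had 6.64 in GFP, 6.73 in GFP-Deg, 6.17 in GFPm3, 5.83 in MTS-GFP, 5.88 in NES-GFP, 6.61 in SS-GFP and 6.33 in the empty vector. Their deviations differed by at most 0.07, and whether each probe also reads the other transcript was not tested. The deviation of *TEF2* in MTS-GFP was -0.48 with the 75th percentile but 0.17 with loess normalization.

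The eEF2 genes *EFT1* and *EFT2*, which also encode the same protein, behaved alike, and here too cross-reading of the probes was not tested. *EFT1* (YOR133W) lay at 4.85 in GFP, 5.05 in GFP-Deg, 4.29 in GFPm3, 3.85 in MTS-GFP, 4.10 in NES-GFP, 4.85 in SS-GFP and 4.77 in the empty vector. *EFT2* (YDR385W) lay at 5.25 in GFP, 5.43 in GFP-Deg, 4.66 in GFPm3, 4.26 in MTS-GFP, 4.46 in NES-GFP, 5.24 in SS-GFP and 5.11 in the empty vector. MTS-GFP minus the empty vector was -0.92 for *EFT1* and -0.86 for *EFT2*, and for *EFT2* it was -0.23 with loess normalization.

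The 3 genes of eEF1B differed from each other. *TEF4* (YKL081W), for a gamma subunit, had levels of 3.80 in GFP, 4.01 in GFP-Deg, 3.33 in GFPm3, 2.54 in MTS-GFP, 2.92 in NES-GFP, 3.87 in SS-GFP and 3.63 in the empty vector. *CAM1* (YPL048W), its paralog, had levels of 2.40 in GFP, 2.24 in GFP-Deg, 2.07 in GFPm3, 2.0 in MTS-GFP, 2.07 in NES-GFP, 2.25 in SS-GFP and 2.31 in the empty vector. The range was 1.47 for *TEF4* and 0.39 for *CAM1*. MTS-GFP minus the empty vector was -1.1 for *TEF4*, where the scalings gave -1.1 to -0.61, and -0.31 for *CAM1*, where they gave -0.31 to 0.01.

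*EFB1* (YAL003W), for the subunit that exchanges the nucleotide of eEF1A, was the factor gene that stood out in GFPm3. Its level was 3.20 in GFP, 3.34 in GFP-Deg, 4.14 in GFPm3, 3.13 in MTS-GFP, 3.23 in NES-GFP, 3.44 in SS-GFP and 3.58 in the empty vector. GFPm3 was above all the other arrays, with a deviation of 0.70 that stayed between 0.62 and 0.77 under the other scalings and the slide mean.

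The eEF3 genes moved in opposite directions with the 75th percentile as the scale. *YEF3* (YLR249W), which encodes the essential eEF3, lay at 4.62 in GFP, 5.11 in GFP-Deg, 4.39 in GFPm3, 4.02 in MTS-GFP, 4.18 in NES-GFP, 4.85 in SS-GFP and 4.72 in the empty vector. *HEF3* (YNL014W), a paralog that is little expressed in standard media and known as a zinc-regulated gene, lay at -3.25 in GFP, -3.37 in GFP-Deg, -2.61 in GFPm3, -1.63 in MTS-GFP, -2.06 in NES-GFP, -2.91 in SS-GFP and -3.15 in the empty vector. *HEF3* was highest in the arrays where *YEF3* was lowest, MTS-GFP and NES-GFP, but with the other 3 scalings *YEF3* was lowest in GFP, at deviations of -0.27 to -0.19, where *HEF3* was low too, at -0.52 to -0.45. Relative to the empty vector, *HEF3* was 1.52 higher in MTS-GFP and 1.09 higher in NES-GFP on the log2 scale, and over the 4 scalings it was 1.33 to 1.52 and 0.88 to 1.09. *YEF3* was -0.70 in MTS-GFP and -0.54 in NES-GFP relative to the empty vector, and -0.11 and -0.08 with loess normalization. With normexp followed by quantile normalization the deviation of *HEF3* in MTS-GFP was 0.97, under 2-fold, and against the mean of its slide it was 0.73.

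The eIF5A genes showed a like contrast with the 75th percentile. *HYP2* (YEL034W), the gene of eIF5A used in air, had levels of 4.88 in GFP, 4.81 in GFP-Deg, 4.70 in GFPm3, 4.27 in MTS-GFP, 4.25 in NES-GFP, 4.67 in SS-GFP and 5.01 in the empty vector. *ANB1* (YJR047C), the hypoxic gene of the same factor and not among the 37, had levels of -0.40 in GFP, -0.03 in GFP-Deg, -0.35 in GFPm3, 1.58 in MTS-GFP, 0.97 in NES-GFP, 0.06 in SS-GFP and -0.21 in the empty vector. MTS-GFP and NES-GFP thus had the lowest *HYP2* and the highest *ANB1*. With the other 3 scalings *ANB1* was still highest in MTS-GFP, whereas *HYP2* was lowest in SS-GFP, at deviations of -0.20 to -0.18, and lay between -0.02 and 0.12 in MTS-GFP. *ANB1* in MTS-GFP was 1.79 above the empty vector, and 1.79 to 1.89 over the scalings. *HYP2* in MTS-GFP was -0.74 relative to the empty vector with the 75th percentile and -0.14 with loess normalization.

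**Figure D5:**
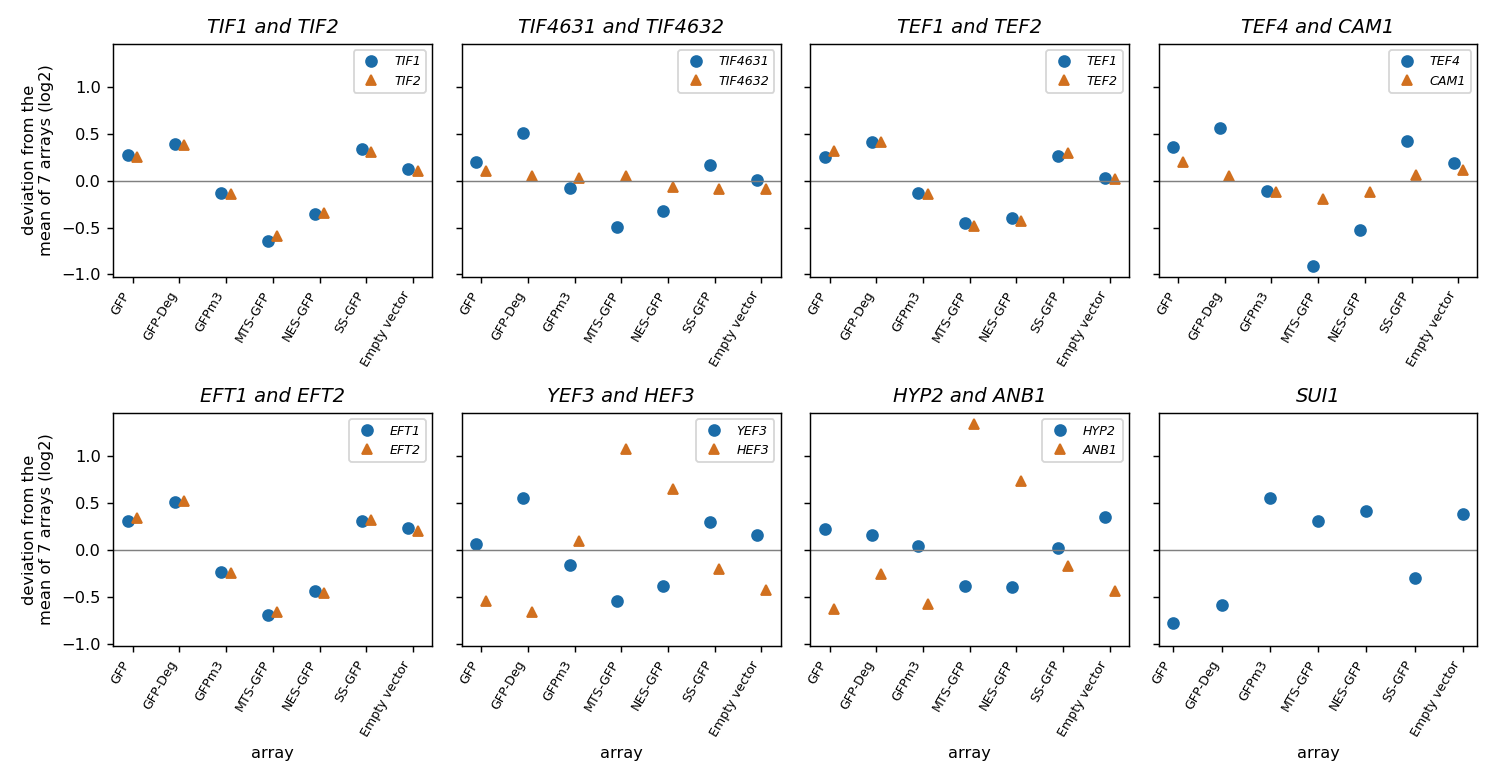
Deviation (log2) of 7 pairs of paralogs and of *SUI1* in each array; circles are the gene named first and triangles its paralog. *TIF1* and *TIF2*, *TEF1* and *TEF2*, and *EFT1* and *EFT2* overlie each other, while *HEF3* (1.08) and *ANB1* (1.35) are highest in MTS-GFP, where *YEF3* (-0.54) and *HYP2* (-0.38) are low with the 75th percentile used here, but at -0.04 and 0.12 with loess normalization.

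Of the termination factors, *SUP45*, for eRF1, which reads the stop codon, followed the majority, with -0.49 in MTS-GFP, -0.37 in NES-GFP and 0.39 in SS-GFP as deviations. *SUP35*, for the GTPase eRF3, had a range of 0.41 and deviations from -0.18 (GFP) to 0.23 (GFPm3).

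Array by array, the counts of factor genes over 1.5-fold from the mean of 7 are given beside the share of all genes in the same direction. In GFP, 0 of 37 were above (all genes 5.72%) and *SUI1* was below (2.84%). In GFP-Deg, *FUN12*, *TIF35*, *TIF5* and *GCN3* were above, at 0.86, 0.71, 0.71 and 0.61 (9.46%), and *SUI1* and *HEF3* were below (4.24%). In GFPm3, *EFB1* was above (5.96%) and 0 were below (6.17%). In MTS-GFP, *HEF3* was above (6.15%) and 7 were below (7.82%), namely *TEF4* at -0.91, *EFT1*, *EFT2*, *TIF1*, *GCN3*, *TIF11* and *TIF2*. Of these counts, the 7 of 37 lay furthest above the share of all genes. The 7 include the near-identical pairs *TIF1* and *TIF2*, and *EFT1* and *EFT2*, which may not be independent counts. With loess normalization only *GCN3*, at -0.62, was still past the threshold, against 2.97% of all genes. With quantile normalization *GCN3*, *TIF11* and *TEF4* were, and after normexp *GCN3* and *TEF4*. In NES-GFP, *HEF3* was above (2.92%) and 0 were below (4.48%). In SS-GFP, 0 were above (3.36%) and 0 below (3.36%), and in the empty vector 0 were above (1.16%) and 0 below (5.14%).

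GFPm3, MTS-GFP and NES-GFP shared the slide of the empty vector, and the differences of GFP, GFP-Deg and SS-GFP from it are between slides. Against the empty vector, which all 6 differences share, the median over initiation and over elongation factors was 0.05 and 0.08 in GFP, 0.22 and 0.30 in GFP-Deg, -0.09 and -0.27 in GFPm3, -0.49 and -0.60 in MTS-GFP, -0.38 and -0.49 in NES-GFP, and 0.10 and 0.13 in SS-GFP. The elongation median for GFP was -0.13 with loess normalization, and that for MTS-GFP was -0.05, whereas the initiation median for MTS-GFP stayed between -0.49 and -0.35. In MTS-GFP, 23 of 24 initiation factors and 9 of 10 elongation factors were lower than in the empty vector with the percentile as the scale. The median deviation of all genes was then -0.05 in MTS-GFP and -0.01 in the empty vector. With loess normalization *CAM1*, *EFB1*, *TEF1* and *TEF2* were higher in MTS-GFP than in the empty vector, by 0.01, 0.03, 0.27 and 0.26. *TEF4*, *EFT1*, *EFT2*, *YEF3* and *HYP2* were still lower with loess normalization, and *HEF3* was higher with both.

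Over 1.5-fold from the empty vector in MTS-GFP were 8 initiation and 5 elongation factors that were lower (all genes 12.1%) and *HEF3*, which was higher (10.8%). The 8 were *TIF1*, *TIF2*, *PRT1*, *GCD11*, *GCD1*, *GCD7*, *GCN3* and *TIF11*, and the 5 were *TEF4*, *EFT1*, *EFT2*, *YEF3* and *HYP2*. Here too the near-identical pairs were counted as separate genes. With loess normalization 3 of these 13 were still over 1.5-fold lower, *GCD7*, *GCN3* and *TEF4*, against 7.47% of all genes. With quantile normalization, with or without normexp, 6 were, with *GCD11*, *GCD1* and *TIF11* added, against 8.11% and 10.2% of all genes. In NES-GFP, *TEF4*, *EFT1*, *EFT2* and *HYP2* were lower (6.68%) and *HEF3* was higher (7.76%). Of these, *HEF3* alone was past the threshold with the other 3 scalings, and *TEF4* was -0.35 and *HYP2* -0.29 with loess normalization. In GFP-Deg, *FUN12*, *TIF35*, *TIF5* and *GCN3* were higher (12.0%) and *SUI1* was lower (4.95%). *SUI1* was also the only gene past the threshold in GFP, where it was lower (4.37%; 0 of 37 higher, 10.7%), and in SS-GFP (lower 5.56%; 0 of 37 higher, 8.5%). The calls in GFP-Deg, GFP and SS-GFP were the same genes under the 4 scalings. In GFPm3 0 of 37 were higher (11.2%) and 0 lower (6.89%), but *EFB1*, at 0.56, was 0.70 to 0.71 and past the threshold with the other 3 scalings.

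Constructs could be compared with the same promoter on the same slide in 2 cases. GFP-Deg minus GFP, both from *TDH3pro*, had a median of 0.26 over the initiation factors, with 21 of 24 higher in GFP-Deg. Over the elongation factors it was 0.16, with 7 of 10 higher. The median deviation of all genes from the mean of 7 arrays was 0.04 in both GFP-Deg and GFP. *FUN12* (0.73), *TIF5* (0.68), *TIF35* (0.63) and *GCD1* (0.62) were over 1.5-fold higher (all genes 6.75%) and 0 of 37 were lower (3.49%). Over the scalings the initiation median was between 0.24 and 0.27 and the elongation median between 0.15 and 0.20. MTS-GFP minus GFPm3, both from *PYK1pro*, had a median of -0.44 over the initiation factors, with 23 of 24 lower in MTS-GFP, and -0.39 over the elongation factors, with 9 of 10 lower. *HEF3* was 0.98 higher (9.64%), and 5 were over 1.5-fold lower (13.8%), namely *EFB1* (-1.01), *TIF11* (-0.93), *TEF4* (-0.80), *TIF3* (-0.65) and *GCD1* (-0.63). With loess normalization 3 of the 5 were past the threshold, *EFB1*, *TIF11* and *GCD1*, against 8.69% of all genes. The initiation median stayed between -0.46 and -0.37 over the scalings, and the elongation median was 0.04 with loess normalization. The median of all genes in this comparison was -0.10.

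Other genes of translation were taken from lists written by function. Of 32 further factors, modifying enzymes, regulators and ribosome-bound chaperones, 29 lay below the mean in MTS-GFP and 29 in NES-GFP, with medians of -0.42 and -0.19, and 24 lay above it in GFP-Deg, with a median of 0.31. *ANB1* was the only one of the 32 over 2-fold from its mean. Of the 21 cytosolic tRNA synthetases, which charge tRNAs for elongation, all 21 were below the mean in MTS-GFP, with a median of -0.64, and all 21 were above it in GFP-Deg, with a median of 0.36. Of all 6225 genes, 3495 lay below the mean in MTS-GFP and 3505 in NES-GFP, and 3433 lay above it in GFP-Deg. The 136 ribosomal protein genes had medians of 0.40 in GFP, 0.37 in GFP-Deg, 0.13 in GFPm3, -0.74 in MTS-GFP, -0.48 in NES-GFP, 0.24 in SS-GFP and 0.11 in the empty vector. Relative to the slide mean, GFP-Deg medians were 0.11 for the 32 further genes, 0.04 for the tRNA synthetases and 0.03 for the ribosomal proteins. The ribosomal protein medians were then 0.06 in GFP and -0.08 in SS-GFP. In MTS-GFP the medians of these lists, in the same order, were still -0.29, -0.43 and -0.5. The heights in GFP, GFP-Deg and SS-GFP cannot be told apart from the slide. With loess normalization the median in MTS-GFP was -0.37 for the tRNA synthetases and -0.37 for the ribosomal proteins, both still below 0, where that of the elongation factors was 0.07.

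The ribosome biogenesis genes, 30 genes whose products assemble ribosomal subunits, had another profile. Their medians were -0.27 in GFP, 0.22 in GFP-Deg, 0.39 in GFPm3, -0.26 in MTS-GFP, -0.06 in NES-GFP, 0.00 in SS-GFP and 0.04 in the empty vector. They were thus low in GFP, where 18 of 24 initiation factors lay above their mean, and highest in GFPm3, where 11 of 24 did. Of all 6225 genes, 3429 lay above their mean in GFP and 3400 in GFPm3. The other scalings were quantile, loess, and normexp followed by quantile normalization. With these, 15, 13 and 16 of 24 initiation factors lay above their mean in GFP, and 14, 13 and 13 in GFPm3. Of all 6225 genes, 3229, 3031 and 3236 did in GFP, and 3156, 3110 and 3135 in GFPm3. Relative to the slide mean, initiation medians were -0.11 in GFP and 0.14 in GFPm3. These had the same signs as the biogenesis medians relative to the slide mean, -0.25 and 0.36. In GFP-Deg minus GFP they had a median of 0.50, against 0.26 for the initiation factors and -0.02 for the ribosomal proteins.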

How the data were processed

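Each construct was measured on 1 one-colour Agilent yeast array. The authors ran Feature Extraction and deposited, for each spot, a processed intensity already corrected for background, with no scaling between arrays. From there, outlier spots (252 to 373 per array) were left out, log2 was taken, the 75th percentile of the array was subtracted, and the 7 spots of a probe were averaged. Deviations are from the mean of 7 arrays, as the study compared each experiment with the average of all, with its 2-fold threshold and a lower one of 1.5-fold. With 1 array per group, differences have no replicate check and no p-value was computed. Gene symbols came from a reference gene table of *S. cerevisiae*, used for names only; 5737 of 6225 names matched a locus tag. *RPP1*, a gene of RNase P, was left out of the ribosomal proteins. Spots were counted as well above background when the software marked at least 4 of 7.

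The alternatives were quantile and loess normalization and normexp (on the median spot signal, offset 50) with quantile normalization, all in limma 3.58.1 (R 4.3.3), the mean of the same slide as the average, the mean in place of the median, and other class memberships. Values were given in all 7 arrays for members over 1.5-fold from the mean, for the 2 members with the largest range in each role group of 3 or more, and for paralog pairs. Members and gene lists were chosen with earlier results of these data known. The steps were tested on simulated data.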

Additional observations from a re-analysis of the deposited data

How the results depend on the processing

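Each construct was on 1 array, so no array could be left out within a construct, no fit with the slide as a term was possible, and the spread between cultures is unknown. No paired analysis was possible because the constructs have no replicates. Of 12 alternatives, leaving out *HEF3*, counting *PAB1* or *HYP2* as initiation factors and the median of spots kept all values they touched within the spot SD of 0.11. The filter on dim genes left out none of the 37, so it could change no value and tested nothing. Where a value below differs from the report, the cause was not tested.

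With loess normalization, median deviations of initiation factors were -0.31 in MTS-GFP and -0.16 in NES-GFP, and those of elongation factors were -0.14 in GFP, 0.01 in GFP-Deg, 0.07 in MTS-GFP, 0.01 in NES-GFP and 0.01 in SS-GFP. Initiation minus elongation was 0.16 in GFP, 0.25 in GFP-Deg, -0.38 in MTS-GFP, -0.17 in NES-GFP and 0.09 in SS-GFP, and 7 genes were over 1.5-fold (25.8% of all genes). Relative to the empty vector, elongation medians were -0.13 in GFP, 0.08 in GFP-Deg, -0.11 in GFPm3, -0.05 in MTS-GFP, -0.04 in NES-GFP and 0.00 in SS-GFP, and initiation medians were -0.35 in MTS-GFP and -0.21 in NES-GFP. The elongation median of MTS-GFP minus GFPm3 was 0.04.

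With quantile normalization, elongation medians were -0.04 in GFP, 0.02 in GFP-Deg, -0.01 in GFPm3, -0.11 in MTS-GFP, -0.04 in NES-GFP and 0.06 in SS-GFP. Initiation minus elongation was 0.12 in GFP, 0.26 in GFP-Deg, -0.29 in MTS-GFP, -0.16 in NES-GFP and 0.07 in SS-GFP. Relative to the empty vector, elongation medians were -0.12 in GFP, 0.08 in GFP-Deg, -0.15 in GFPm3, -0.22 in MTS-GFP and -0.15 in NES-GFP, and in MTS-GFP minus GFPm3 the median was -0.14.

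With normexp followed by quantile normalization, elongation medians were -0.06 in GFP, 0.05 in GFP-Deg, 0.00 in GFPm3, -0.14 in MTS-GFP, -0.03 in NES-GFP and 0.07 in SS-GFP. Initiation minus elongation was 0.12 in GFP, 0.24 in GFP-Deg, -0.26 in MTS-GFP, -0.18 in NES-GFP and 0.06 in SS-GFP, with 0 genes over 2-fold (5.01% of all genes) and 8 over 1.5-fold (19.8%). Relative to the empty vector, elongation medians were -0.09 in GFP, 0.09 in GFP-Deg, -0.12 in GFPm3, -0.23 in MTS-GFP, -0.11 in NES-GFP and 0.02 in SS-GFP, and in MTS-GFP minus GFPm3 the median was -0.16.

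With the mean of the same slide as the average, initiation medians were -0.11 in GFP, 0.14 in GFP-Deg, 0.14 in GFPm3, -0.28 in MTS-GFP, -0.13 in NES-GFP, -0.03 in SS-GFP and 0.24 in the empty vector. Elongation medians were -0.07 in GFP, 0.09 in GFP-Deg, 0.09 in GFPm3, -0.30 in MTS-GFP, -0.17 in NES-GFP, -0.04 in SS-GFP and 0.33 in the empty vector. The difference of the classes was 0.05 in GFP-Deg and 0.01 in SS-GFP, with 0 genes over 2-fold (4.42% of all genes) and 2 over 1.5-fold (16.3%); an average over 3 or 4 arrays holds more of the array itself.

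Means in place of medians gave elongation values of 0.13 in GFP, 0.24 in GFP-Deg, -0.35 in MTS-GFP and -0.27 in NES-GFP, and a class difference of 0.08 in GFP-Deg. With near-identical paralogs averaged, the elongation median was 0.29 in GFP-Deg and 0.17 in SS-GFP, and the class difference was 0.04 in GFP-Deg. Against the empty vector in place of the mean, 3 genes were over 2-fold (17.0% of all genes) and 18 over 1.5-fold (45.6%).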
